A study of Mus musculus with 6 samples.

Results

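The charged multivesicular body proteins (CHMPs) are the filament-forming subunits of the complex ESCRT-III, and their genes were followed in intestinal cells sorted for a cholecystokinin reporter. All 10 genes named in the family (Chmp1a, Chmp1b, Chmp2a, Chmp2b, Chmp3, Chmp4b, Chmp4c, Chmp5, Chmp6 and Chmp7) were measured, out of 18193 genes on the array. They were picked because the family leaned lower in the reporter-positive cells, so their levels and differences between the groups are given as a description, without a test. The 10 genes had 21 probe sets annotated to a single gene symbol, out of 34945 such probe sets, and each gene is represented by its brightest probe set by the mean of 6 arrays. A further 2 probe sets that list Chmp1b together with another gene were left out. Gene expression was measured on 3 arrays of CCK-EGFP cells, sorted by fluorescence from the enzyme-dissociated intestine of adult Swiss Webster mice with a CCK-EGFP transgene, and on 3 arrays of non-EGFP cells, which came from the intestine of mice with the same transgene and were taken in equal number. EGFP is a green fluorescent protein, here a reporter for cells that make the fat-released gut hormone cholecystokinin, and the non-EGFP cells are intestinal cells without that fluorescence. The labels do not say whether replicates came from separate mice or from pools of animals, so the spread between them may be technical.

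ESCRT-III acts on the inner side of a narrow membrane neck. Its subunits lie in the cytosol as closed monomers, assemble into spirals on the membrane, and are pulled apart again by the ATPase VPS4, and this cycle cuts the neck. The cut frees vesicles into multivesicular endosomes on the way to the lysosome, parts daughter cells at the end of division, and closes holes in the plasma membrane and the nuclear envelope. ESCRT-0, ESCRT-I and ESCRT-II gather ubiquitin-tagged cargo ahead of ESCRT-III, and in the gut epithelium this route carries surface receptors and transporters to the lysosome.

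Values are log2 RMA intensities, on which a difference of 1 is a factor of 2. A background level of 4.60 was taken from the means of 71 olfactory and vomeronasal receptor genes, as their 95th percentile. All 10 CHMP genes had means above it, as did 71.3% of all genes. The sorted cells carried the markers of their label. Cck had 13.16 ± 0.32 in CCK-EGFP cells, against 8.63 ± 0.27 in non-EGFP cells (SD, n = 3 each), and 11 of 11 measured enteroendocrine markers, Cck included, were higher in CCK-EGFP cells (limma, Benjamini-Hochberg adjusted p under 0.05), among them Scg2 (difference 7.56) and Scgn (7.42, or 8.01 without non-EGFP replicate 3). Of 12 enterocyte markers 4 were lower and 0 higher, with 8 lower and 0 higher at an unadjusted p under 0.05. With the replicate number as a block, the number of lower enterocyte markers was 1, and it was 0 to 6 on leaving out each array. Their mean log2 level was 12.37, 12.48 and 13.16 on CCK-EGFP replicates 1, 2 and 3, against 13.51, 13.57 and 13.51 on the non-EGFP replicates, and their summed intensity on the linear scale was 93413 to 125683 in CCK-EGFP cells, against 150366 to 152733 in non-EGFP cells. By these list means, enterocyte marker transcripts were abundant in both groups. The widest differences of the list were those of Treh (-1.94, limma adjusted p = 0.0341, or 0.0527 with the block) and Mttp (-1.53, adjusted p = 0.0381, or 0.055 with the block). Vil1, a brush border gene of the list, averaged 13.07 ± 0.09 in CCK-EGFP cells, against 13.53 ± 0.05 in non-EGFP cells. Goblet markers were mixed (1 higher, 2 lower, 4 not past the threshold) and 3 of 6 tuft markers were higher (2 with the block). The widest goblet differences were those of Muc2 (-1.325, limma adjusted p = 0.0473) and Agr2 (1.20, adjusted p = 0.00655). The widest tuft differences were those of Dclk1 (4.16, limma adjusted p = 0.00592) and Avil (2.47, adjusted p = 0.00656). Dclk1 averaged 4.58 in non-EGFP cells, near the background level, and its 9 probe sets ranged from -0.06 to 4.16. Leaving out each array gave 0 to 1 lower goblet markers. None of 8 lymphocyte, 4 Paneth or 6 myeloid markers was called by limma without the block, with 0, 0 and 4 lower at an unadjusted p under 0.05. With the block 3 Paneth markers (Mmp7, Itln1 and Ang4, adjusted p = 0.0352, 0.0247 and 0.0298) and 2 myeloid markers (Lyz2 and H2-Aa, adjusted p = 0.0253 and 0.0358) were lower in CCK-EGFP cells by limma, and 0 lymphocyte markers. The part of these cell types in the CHMP differences was not tested. For RNA quality, the 3' minus 5' log2 difference of the Pcx control was 2.36 to 3.07 on CCK-EGFP arrays and 4.26 to 4.38 on non-EGFP arrays, and that of the transferrin receptor control was 2.89 to 3.76 on CCK-EGFP arrays and 1.17 to 3.05 on non-EGFP arrays, so the 2 controls leaned opposite ways. The beta-actin and Gapdh controls overlapped between the groups, as did the transferrin receptor control.

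Promoter windows are shown for 3 members whose levels differ in behaviour, 2 that were lower without overlap (Chmp2b and Chmp3) and 1 at a like level in both groups (Chmp5). The windows run from 250 bases before to 50 bases after an annotated start and come from RefSeq (GRCm38.p6). They were used for 6 of the 10 members, as 7 windows, since Chmp3 has 2 starts. Chmp1b, Chmp4c, Chmp6 and Chmp7 have none here, as no window was matched or it was left out. Any member window on 1 chromosome was left out beforehand, while the shares over all windows were not limited in this way. Capitals mark the GC box, GGGCGG on either strand.
Chmp2b (chr16:65562713-65563012, minus strand): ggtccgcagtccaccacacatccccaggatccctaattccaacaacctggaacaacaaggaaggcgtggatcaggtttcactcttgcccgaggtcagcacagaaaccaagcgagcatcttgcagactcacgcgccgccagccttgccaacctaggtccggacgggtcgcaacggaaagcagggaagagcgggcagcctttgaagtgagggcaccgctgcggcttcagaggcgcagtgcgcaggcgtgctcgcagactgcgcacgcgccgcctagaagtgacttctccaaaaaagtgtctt
Chmp3 (chr6:71543602-71543901, plus strand): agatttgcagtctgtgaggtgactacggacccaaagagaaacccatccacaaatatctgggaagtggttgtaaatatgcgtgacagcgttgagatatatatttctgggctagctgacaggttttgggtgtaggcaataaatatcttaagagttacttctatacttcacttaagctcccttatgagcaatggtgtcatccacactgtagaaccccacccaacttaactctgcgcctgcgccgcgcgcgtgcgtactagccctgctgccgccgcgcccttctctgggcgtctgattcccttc
Chmp3 (chr6:71544103-71544402, plus strand): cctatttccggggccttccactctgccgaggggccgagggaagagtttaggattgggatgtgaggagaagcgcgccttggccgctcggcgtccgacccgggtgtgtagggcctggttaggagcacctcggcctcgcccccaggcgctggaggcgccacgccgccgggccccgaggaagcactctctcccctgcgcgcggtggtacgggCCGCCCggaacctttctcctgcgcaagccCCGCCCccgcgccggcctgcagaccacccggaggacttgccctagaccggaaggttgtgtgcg
Chmp5 (chr4:40948303-40948602, plus strand): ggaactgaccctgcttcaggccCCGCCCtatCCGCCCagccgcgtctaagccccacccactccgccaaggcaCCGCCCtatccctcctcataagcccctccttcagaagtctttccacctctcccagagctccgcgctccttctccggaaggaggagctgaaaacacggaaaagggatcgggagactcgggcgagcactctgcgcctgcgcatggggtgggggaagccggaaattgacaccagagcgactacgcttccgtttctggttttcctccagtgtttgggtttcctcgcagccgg
The GC box occurred 3 times in the Chmp5 window, 2 times in the second Chmp3 window, and in neither the Chmp2b window nor the first Chmp3 window, and of the members whose windows are not printed it occurred 5 times for Chmp1a, 1 time for Chmp4b and 0 times for Chmp2a. It is held by 35.7% of all 32851 windows. The E-box CACGTG (7.15% of all windows) and the TATA box TATAAA (13.6%) were in none of the 7 member windows, and the CCAAT box (CCAAT, 37.4%) was in the second Chmp3 window alone of the 7. GC content was 60.0% for Chmp2b, 49.7% and 71.0% for Chmp3 and 62.3% for Chmp5, against a median of 52.7% over all windows. A match is a string of letters and not a site shown to be bound. In the windows printed no matches overlapped.

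Across the family, 9 of 10 genes had a lower mean in CCK-EGFP cells, against 58.3% of all genes, and 7 were lower without overlap between the groups, against 28.1% of all genes. No member was higher without overlap, against 21.8% of all genes. Nothing is read from these counts, because the family was chosen on this contrast. The median log2 difference of the 10 genes was -0.66, with a range of -1.17 to 0.04, beside a median of -0.17 over all genes. With each array centred on its own median, every difference shifts by the same amount, which puts the all-gene median at -0.42 and the family median at -0.91. The family median lay 0.71 below that of the 12975 genes above the background level, and 0.38 below that of all genes when the probe sets of each gene were averaged. The mean of the 10 genes was 10.39, 10.50 and 10.51 on CCK-EGFP replicates 1, 2 and 3, against 11.11, 11.12 and 10.99 on the non-EGFP replicates. In sorted pools, fewer cells that express a gene and less RNA per cell cannot be told apart.

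**Figure D1:**
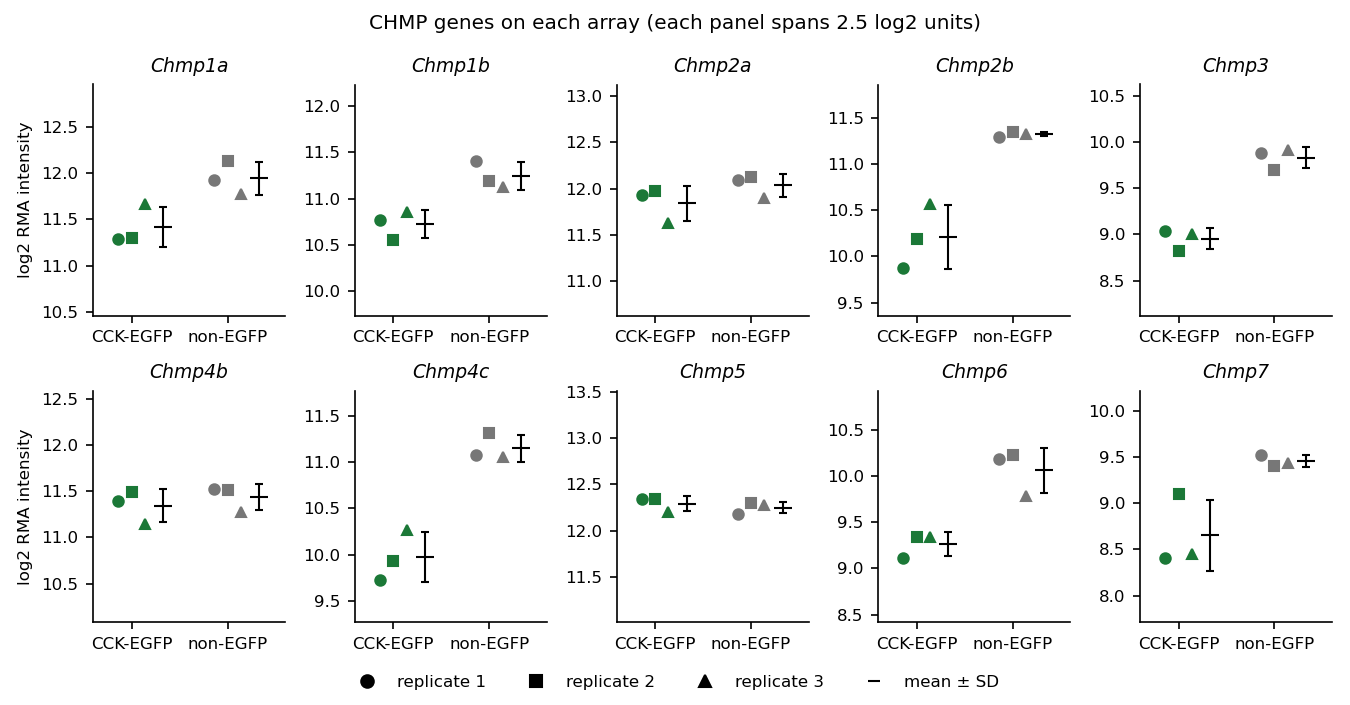
Log2 RMA intensity of the 10 CHMP genes on each array, CCK-EGFP cells left and non-EGFP cells right, with symbols for the replicate number and the mean ± SD (n = 3) beside them; each panel has its own range and spans the same number of log2 units. Chmp2b, Chmp3, Chmp4c and Chmp6 separate widely, and Chmp2a, Chmp4b and Chmp5 overlap between the groups.

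Assembly on endosomes starts with CHMP6, which binds ESCRT-II and the membrane and seeds the filament. Chmp6 read 9.12, 9.34 and 9.34 in CCK-EGFP cells, against 10.18, 10.22 and 9.78 in non-EGFP cells. Every CCK-EGFP array lay below every non-EGFP array, by 0.44 at the closest numbered pair and 1.06 at the widest. The mean difference was -0.79, or 1.73-fold lower in CCK-EGFP cells, and the array has a single probe set for the gene.

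CHMP4 proteins form the bulk of the filament, and the mouse genes Chmp4b and Chmp4c encode paralogs with partly separate roles. CHMP4B serves in most ESCRT-III tasks, while CHMP4C is known for the abscission checkpoint, in which the kinase Aurora B acts on it to delay the parting of daughter cells. Chmp4c read 9.73, 9.93 and 10.27 in CCK-EGFP cells, against 11.08, 11.31 and 11.05 in non-EGFP cells. The groups were well apart, and the mean difference of -1.17 (9.97 ± 0.27 in CCK-EGFP cells, against 11.15 ± 0.14 in non-EGFP cells, SD, n = 3 each) was the largest of the 10 genes. Chmp4b read 11.39, 11.49 and 11.15 in CCK-EGFP cells, against 11.52, 11.52 and 11.28 in non-EGFP cells, so its groups overlapped and its mean difference was -0.10.

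All 5 Chmp4c probe sets were lower in CCK-EGFP cells without overlap, by more on the 4 dimmer ones. The second by brightness averaged 7.90 ± 0.73 in CCK-EGFP cells, against 10.02 ± 0.11 in non-EGFP cells, a difference of -2.12, and the third differed by -1.51. Of the remaining pair, the brighter read 4.19 to 4.89 in CCK-EGFP cells, against 6.57 to 8.23 in non-EGFP cells, and the dimmer 3.68 to 4.67 in CCK-EGFP cells, against 6.43 to 7.88 in non-EGFP cells. Their CCK-EGFP means lie below the background level, against which they were at least 7.30-fold and at least 5.90-fold lower. The Chmp4b probe sets differed in size of difference. Its dimmer probe set read 7.96, 7.95 and 7.16 in CCK-EGFP cells, against 8.65, 8.62 and 8.27 in non-EGFP cells, a difference of -0.82 without overlap, where the brighter probe set showed -0.10.

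CHMP3 and the CHMP2 proteins cap and shape the growing filament, and CHMP2 proteins draw in VPS4. Chmp2b, whose human counterpart is mutated in a familial frontotemporal dementia, read 9.87, 10.19 and 10.57 in CCK-EGFP cells, against 11.30, 11.34 and 11.33 in non-EGFP cells. The CCK-EGFP arrays were spread (SD 0.35) and the non-EGFP arrays nearly level (SD 0.02), and every CCK-EGFP array was lower. The mean difference was -1.11, 2.16-fold lower, and the second probe set, at 9.49, 9.36 and 9.60 in CCK-EGFP cells, against 11.52, 11.53 and 11.12 in non-EGFP cells, differed by -1.91, or 3.76-fold. Its paralog Chmp2a read 11.93, 11.98 and 11.62 in CCK-EGFP cells, against 12.09, 12.13 and 11.90 in non-EGFP cells. These groups overlapped and the difference of -0.20 was about the size of the SD of the CCK-EGFP arrays (0.19).

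Chmp3 was the tightest of the lower genes. It read 9.03, 8.82 and 9.01 in CCK-EGFP cells, against 9.87, 9.70 and 9.92 in non-EGFP cells, a difference of -0.87 with SDs of 0.11 in CCK-EGFP cells and 0.12 in the others. All 3 numbered pairs gave nearly the same gap, between -0.91 and -0.84. The other Chmp3 probe sets overlapped between the groups, at -0.22 and, near the background level, -0.05, so the separation rests on 1 of its 3 probe sets.

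CHMP1A and CHMP1B join late and recruit partners with MIT domains, among them the microtubule-severing enzyme spastin and the ESCRT-III-like protein IST1. Chmp1a read 11.28, 11.29 and 11.67 in CCK-EGFP cells, against 11.93, 12.13 and 11.77 in non-EGFP cells. The groups did not overlap, but replicate 3 came within 0.10, and the mean difference was -0.53. Chmp1b was lower by a like amount, at 10.77, 10.56 and 10.85 in CCK-EGFP cells against 11.41, 11.19 and 11.13 in non-EGFP cells, a difference of -0.52 without overlap. Its second probe set differed by -0.77, also without overlap.

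CHMP5 works beside the core filament and binds LIP5 (Vta1), the cofactor of VPS4, and CHMP7 starts ESCRT-III assembly at the nuclear envelope together with the inner membrane protein LEMD2. Chmp5 read 12.34, 12.34 and 12.20 in CCK-EGFP cells, against 12.18, 12.30 and 12.27 in non-EGFP cells. It was the sole member with a higher mean in CCK-EGFP cells, by 0.04, less than the SD of either group (0.08 in CCK-EGFP cells, 0.06 in non-EGFP cells), and its other probe set lay below the background level on all 6 arrays. Chmp7 read 8.40, 9.10 and 8.45 in CCK-EGFP cells, against 9.52, 9.41 and 9.44 in non-EGFP cells. The difference was -0.80 without overlap, with replicate 2 the high CCK-EGFP array, and the dim second probe set, near the background level, differed by -0.64.

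**Figure D2:**
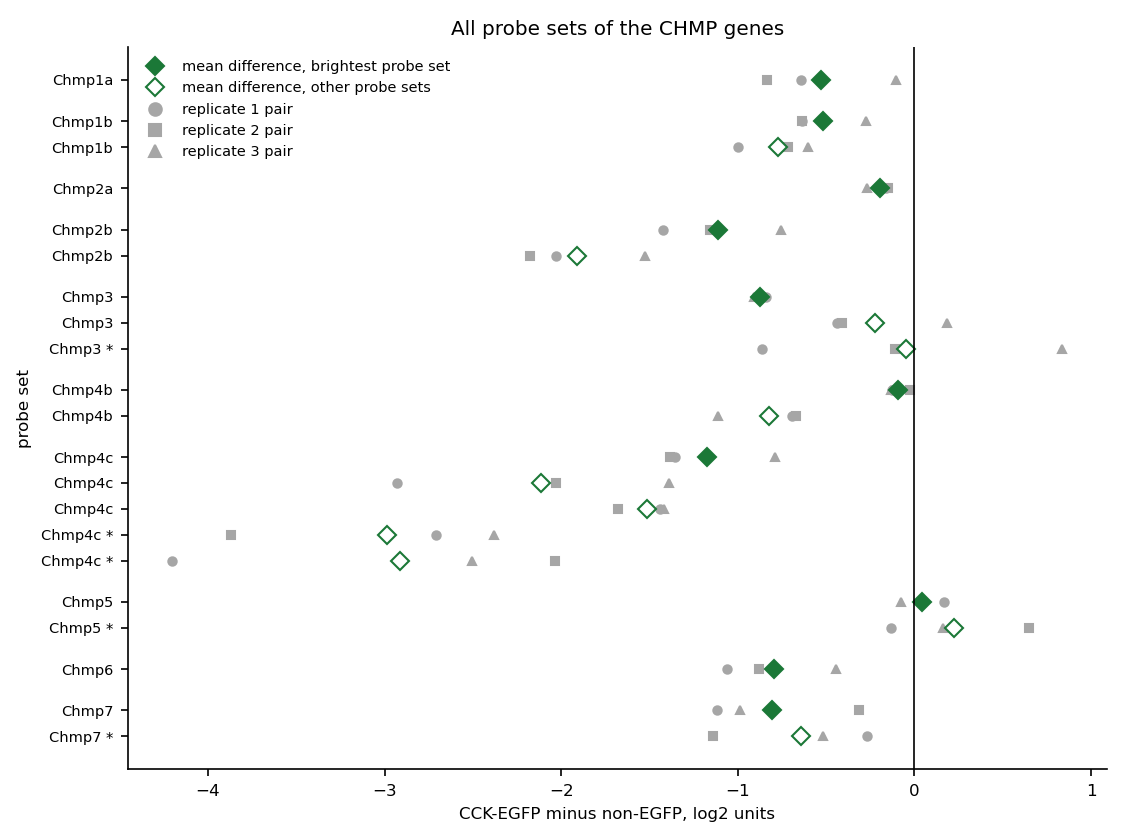
Difference between CCK-EGFP and non-EGFP cells in log2 units for the 21 probe sets of the CHMP genes, grouped by gene and ordered by brightness; diamonds are mean differences, grey symbols the differences of same-numbered arrays, and a star marks a probe set with at least 1 array below the background level. Of the 21 probe sets 19 lie below 0, beside 58.3% of all genes by their brightest probe set. Chmp4c and Chmp2b lie farthest out, and both Chmp5 probe sets lie above 0.

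Over all 21 probe sets, 15 were lower in CCK-EGFP cells without overlap, against 27.4% of the 34945 probe sets, and 2 had a mean at or below the background level. By same-numbered pairs, 9 of the 10 genes were lower in all 3 pairs. No share over all genes was computed for this count, and nothing is read from it. CCK-EGFP replicate 3 had the highest enterocyte marker level of its group. It was the highest CCK-EGFP array for 4 of the 10 genes (Chmp1a, Chmp1b, Chmp2b and Chmp4c) and the lowest for Chmp2a, Chmp4b and Chmp5. For these ranks too, no share over all genes was computed, and nothing is read from them. The part of enterocyte content in the differences was not tested.

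The rest of the ESCRT pathway was not used to choose the CHMP genes and was tested. Its gene lists were, however, drawn up with earlier results of these data known. Of 34 partner genes, 5 were lower, 1 was higher and 28 did not pass (limma over all 18193 genes, adjusted p under 0.05). That is 14.7% lower and 2.94% higher, beside 10.2% and 14.0% of all genes. The median difference was -0.22, beside -0.17 over all genes and -0.66 for the CHMP genes. Of the partner genes 33 had means above the background level, a larger share than the 71.3% of all genes. In a fit limited to the 12975 genes above that level, 1732 genes were lower and 2551 higher. Among the partner genes, 5 were lower and 1 higher in that fit. With the replicate number as a block 2 were lower and 1 higher. The lower calls were fragile, as 0 were lower by limma on leaving out CCK-EGFP replicate 1, CCK-EGFP replicate 2 or non-EGFP replicate 2, 1 without CCK-EGFP replicate 3 or non-EGFP replicate 1, and 3 without non-EGFP replicate 3. The 1 higher call was absent without CCK-EGFP replicate 1 or 2.

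**Figure D3:**
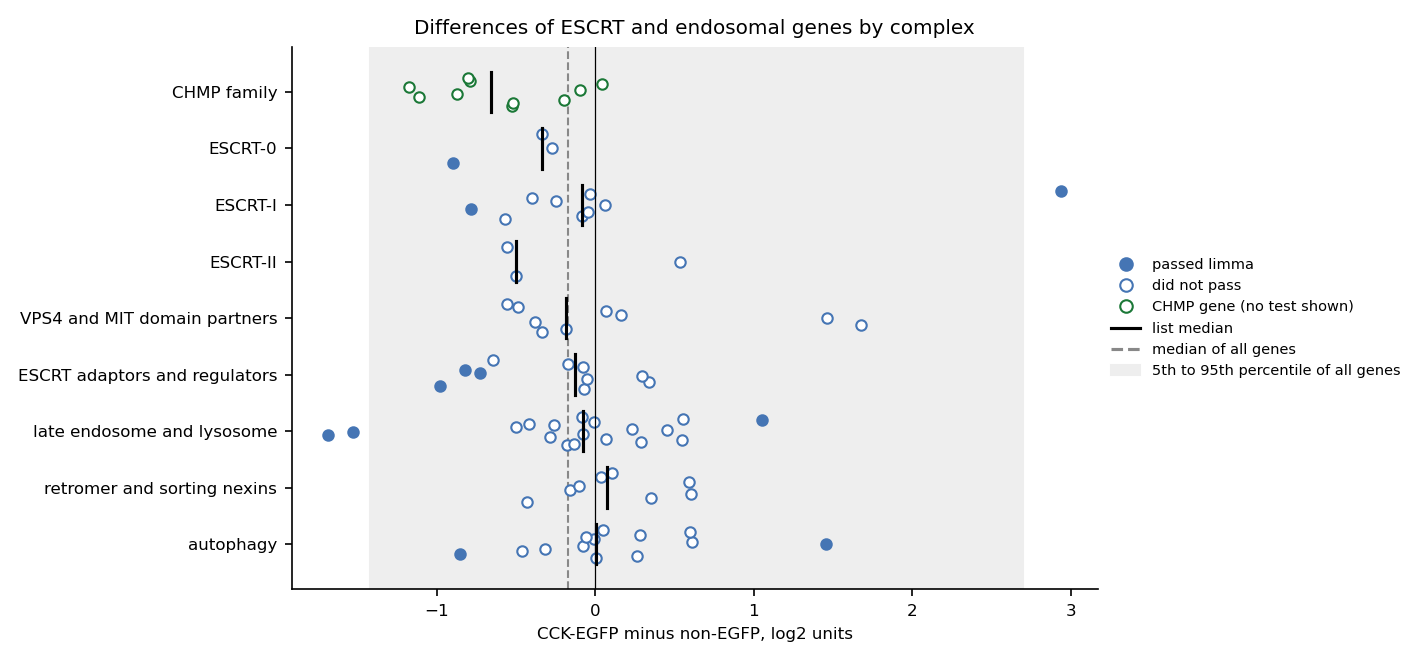
CCK-EGFP minus non-EGFP difference in log2 units for each measured gene of the CHMP family, the ESCRT partner lists and the endosomal and autophagy lists; filled circles passed limma, black bars are list medians, the dashed line is the median of all genes and the grey band their 5th to 95th percentile (-1.42 to 2.70). The CHMP genes lie between -1.17 and 0.04, and Vps37d stands alone at 2.94.

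ESCRT-0 captures ubiquitinated cargo on early endosomes. Its subunit gene Hgs read 8.82, 9.20 and 9.13 in CCK-EGFP cells, against 10.14, 9.997 and 9.69 in non-EGFP cells, and was lower by the test (log2 difference -0.90, SE 0.21, limma adjusted p = 0.0279, or 0.059 with the block). Its call ended without any array other than non-EGFP replicate 3 (adjusted p up to 0.1). The other subunits, Stam (-0.27, adjusted p = 0.367) and Stam2 (-0.34, adjusted p = 0.47), did not pass. The 6 Stam2 probe sets ranged from -1.16 to 0.70.

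ESCRT-I bridges the cargo complex to ESCRT-II, and its subunits went different ways. The higher gene was Vps37d, an alternative VPS37 subunit, at 9.48, 9.60 and 9.54 in CCK-EGFP cells, against 5.23, 7.73 and 6.85 in non-EGFP cells. The CCK-EGFP arrays were level and the non-EGFP arrays ranged widely, with a mean difference of 2.94 (SE 0.60, limma adjusted p = 0.0169), or 7.67-fold, and 4.77-fold without non-EGFP replicate 1. That call ended without CCK-EGFP replicate 1 (0.056) or 2 (0.0649). The lower gene was Ubap1, a ubiquitin-binding subunit, at 9.16, 9.23 and 9.36 in CCK-EGFP cells, against 10.07, 10.28 and 9.74 in non-EGFP cells (difference -0.78, SE 0.21, limma adjusted p = 0.0393, or 0.0717 with the block). It lost its call without any array other than non-EGFP replicate 3 (adjusted p up to 0.125). The abundant subunit genes Vps28 (12.68 ± 0.13 in CCK-EGFP cells, against 12.62 ± 0.09 in non-EGFP cells, limma adjusted p = 0.798) and Vps37a (difference -0.25, adjusted p = 0.365) did not pass.

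None of the 3 ESCRT-II genes and none of the 9 genes for VPS4 and its MIT domain partners passed limma after adjustment (at an unadjusted p under 0.05, 1 lower in each list and 0 higher). In ESCRT-II, Snf8 differed by -0.50 (adjusted p = 0.101) and Vps36 by -0.56 (adjusted p = 0.13). The 3 Vps36 probe sets ranged from -2.11 to -0.42. The ATPase gene Vps4b averaged 11.59 ± 0.08 in CCK-EGFP cells, against 12.08 ± 0.10 in non-EGFP cells, apart on every array but short of the threshold (adjusted p = 0.0824), and its 3 probe sets ranged from -1.10 to 0.71. Ist1, the ESCRT-III-like partner of the CHMP1 proteins, differed by -0.34 (adjusted p = 0.194). By brightest probe set, the widest differences of these lists were higher in CCK-EGFP cells. They were those of Spast, the spastin gene (1.68, limma adjusted p = 0.161), and Stambpl1 (1.46, adjusted p = 0.124). Neither overlapped between the groups, with non-EGFP SDs of 1.67 and 1.30. Their other probe sets differed by 0.41 and 0.21. Vps25 of ESCRT-II differed by 0.54 with overlap (adjusted p = 0.449).

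The list of ESCRT adaptors and regulators held the remaining lower calls, 3 of 10 (30.0%), beside 10.2% of all genes. In this list 0 were higher, beside 14.0% of all genes (0 higher also at an unadjusted p under 0.05). Cc2d1a, whose protein binds CHMP4 proteins and restrains their assembly, read 9.40, 9.84 and 9.90 in CCK-EGFP cells, against 10.61, 10.91 and 10.56 in non-EGFP cells (difference -0.98, SE 0.22, limma adjusted p = 0.0234, lost without replicate 1 or 2 of CCK-EGFP cells or replicate 2 of non-EGFP cells, up to 0.0795). Pdcd6ip encodes ALIX, which binds CHMP4 directly. It read 11.26, 10.93 and 10.71 in CCK-EGFP cells, against 12.09, 11.72 and 11.56 in non-EGFP cells (difference -0.82, limma adjusted p = 0.0489). Pdcd6 encodes ALG-2, the calcium-binding partner of ALIX, and read 11.97, 12.26 and 12.42 in CCK-EGFP cells, against 12.84, 13.00 and 12.98 in non-EGFP cells (difference -0.73, limma adjusted p = 0.0405, or 0.0587 with the block). The groups did not overlap for either gene, but neither call survived the loss of any single array (highest adjusted p 0.142 and 0.132), and the 5 Pdcd6ip probe sets ranged from -1.46 to 0.14. Brox (-0.07, adjusted p = 0.783) and Ptpn23 (-0.08, adjusted p = 0.871), relatives of ALIX that also bind CHMP4, did not pass. The 2 Brox probe sets ranged from -1.54 to -0.07.

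**Figure D4:**
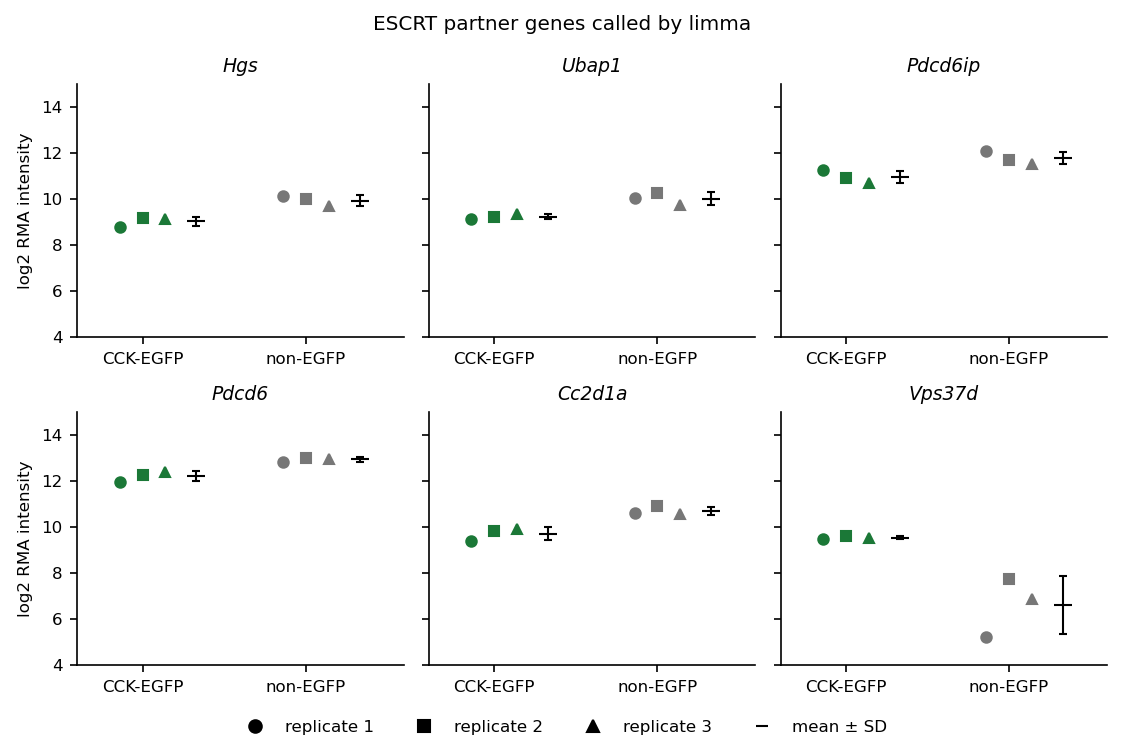
Log2 RMA intensity on each array of the 6 ESCRT partner genes past the limma threshold, CCK-EGFP cells left and non-EGFP cells right, with the mean ± SD (n = 3). Hgs, Ubap1, Pdcd6ip, Pdcd6 and Cc2d1a are lower on every CCK-EGFP array, and Vps37d is higher, with non-EGFP arrays between 5.23 and 7.73.

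The partner genes whose pattern over the 6 arrays was most like the mean of the CHMP genes were Hgs (Pearson r = 0.98), Cc2d1a (0.97) and Ubap1 (0.97). The arrays fall into their 2 groups, so r mostly follows the group difference, and 11.0% of all other genes had r above 0.9.

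Genes of neighbouring endosomal pathways were tested in the same way. Of 39 measured genes for late endosomes and lysosomes, retromer and autophagy, 3 were lower (7.69%) and 2 higher (5.13%), beside 10.2% and 14.0% of all genes, with a median difference of -0.01. The lower genes were Lipa, lysosomal acid lipase (9.48 ± 0.42 in CCK-EGFP cells, against 11.16 ± 0.41 in non-EGFP cells, difference -1.68, limma adjusted p = 0.0126), Npc1, the lysosomal cholesterol transporter (8.65 ± 0.25 in CCK-EGFP cells, against 10.18 ± 0.39 in non-EGFP cells, difference -1.53, limma adjusted p = 0.0103), and the autophagy gene Atg5 (-0.86, adjusted p = 0.028). Higher were Vps33a, a tethering subunit of late endosomes (1.05, adjusted p = 0.0447), and Gabarapl1, an autophagosome protein of the LC3 family (1.45, adjusted p = 0.0421). The calls of Lipa and Npc1 held without each array in turn (adjusted p up to 0.0453 and 0.0481), whereas those of Atg5, Vps33a and Gabarapl1 each ended without 5 of the 6 arrays (up to 0.099, 0.143 and 0.127). The abundant Rab7 (0.23, adjusted p = 0.32), Lamp1 (0.07, adjusted p = 0.773), Gabarap (-0.08, adjusted p = 0.74) and Map1lc3b (-0.06, adjusted p = 0.811) did not pass. In the retromer list, 0 of 8 genes passed limma (1 higher and 0 lower at an unadjusted p under 0.05), and Vps26a and Vps29 differed by -0.10 and 0.04. The 5 Vps29 probe sets ranged from -0.17 to 2.40.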

How the data were processed

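Total RNA of sorted intestinal cells was amplified from picogram amounts and hybridised to Affymetrix mouse arrays, per the labels' protocols. The authors deposited 1 table of log2 values for 45101 probe sets, made with RMA per the submitters' processing notes (background correction, quantile normalization, probe summary). Quantile normalization can reduce a broad shift between groups, and RMA gives no detection call. The deposited array medians still differed by group, at 5.66 to 5.72 on CCK-EGFP arrays and 5.37 to 5.55 on non-EGFP arrays. The log2 scale was taken from the values, 1.47 to 14.8. Of the probe sets, 34945 had 1 symbol in the platform annotation, 932 had several and 9160 were unlisted. RefSeq identifiers changed 0 symbols.

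Each of 18193 genes was represented by its brightest probe set. The contrast was fitted in R 4.3.3 by limma 3.58.1 (lmFit and eBayes, two-sided, Benjamini-Hochberg over every gene, threshold 0.05), tested on simulated data first, and tables were made with Python 3.11.15. The precision is limited by 3 arrays a group. The members and lists were chosen with earlier results of these data known. Text names every CHMP gene. From each pathway list it names up to 4 genes past the threshold by size and up to 2 not past it by level. From each marker list other than lymphocyte and stromal it names up to 2 genes by size. The 3 partner genes most like the family are also named. Vil1 was added after its values were seen, and so were Itln1, Lyz2, Spast, Stambpl1 and Vps25. Other marker genes are given by list. Of the list genes, 2 of the endosomal, 1 enteroendocrine, 1 enterocyte, 2 Paneth and 1 tuft gene are not analysed here. Stem and stromal markers had 0 of 5 and 0 of 7 genes called by limma (1 higher in each list and 1 lower in the stromal list at an unadjusted p under 0.05); with the block the stem cell marker Smoc2 was higher (adjusted p = 0.0336).

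The labels number replicates 1 to 3 in both groups. Across genes, which are not independent, deviations from the group means correlated at 0.270, 0.159 and 0.219 between same-numbered arrays and at -0.245 to -0.0109 between others. Deviations within a group cancel out, so these values are not separate evidence. The numbers were treated as a possible pairing, which the labels do not state. The test has no block, and blocked values stand beside the calls and counts that they change. Other alternatives were a filter at the background level, 2 other scalings, the mean of a gene's probe sets, trend with robust eBayes, array weights, and leaving out each array.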

Additional observations from a re-analysis of the deposited data

How the results depend on the processing

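With each array centred on its median, 2101 genes were higher and 3605 lower, against 2540 and 1851 as deposited; 9 ESCRT partner genes were lower, against 5, 0 of the endosomal and autophagy genes were higher by limma, against 2, the median CHMP difference was -0.91, against -0.66, and all 10 CHMP means, Chmp5 included (-0.21), were lower. Centring lowers every CCK-EGFP difference by the same amount, so nothing is read from the count of lower CHMP means. Other causes were not tested. With a gene's probe sets averaged, 2 partner genes and 4 endosomal and autophagy genes were higher, Chmp4c differed by -2.14, Chmp2b by -1.51, Chmp4b by -0.46 and Chmp3 by -0.38. With the replicate number as a block, 2 partner genes were lower, Cc2d1a and Pdcd6ip. Leaving out each array gave 1365 to 2486 genes higher and 505 to 1962 lower, 0 to 2 partner genes higher and 0 to 3 lower, 0 to 1 endosomal and autophagy genes higher and 2 to 3 lower, and a CHMP median of -0.71 to -0.61. Without CCK-EGFP replicate 3 the Chmp4b difference was 0.00 and 8 CHMP means were lower. The filter at the background level kept all 10 CHMP genes. No named gene past the threshold changed direction under any alternative run. Dim probe sets near the background level limit what can be read from the second probe sets of Chmp5 and Chmp7 and the third of Chmp3.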
